A study of Mus musculus with 18 samples.

Results

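The genes described here are 34 genes known as markers or signalling components of thymic tuft cells, out of 49585 genes in the Aire and Fezf2 count tables and 21969 in the Chd4 table. They were chosen by symbol from general knowledge of tuft cells, with earlier results of these data known, and every one of the 34 was present in all tables. They were grouped by role into taste transduction (5 genes), transcription factors (5), cytoskeleton and acetylcholine (3), eicosanoid synthesis (5), interleukins and receptors (5) and intracellular signalling (11). RNA-seq had been made from sorted mouse medullary thymic epithelial cells (mTECs), with 3 libraries in each of 6 groups. On the C57BL/6 background these were mice labelled Aire KO with their own wild-type (WT) group, and mice labelled Fezf2 KO with a second WT group. On a mixed C57BL/6x129P2 background they were Chd4 flox/flox mice carrying Foxn1-Cre (the Chd4 cKO) and Chd4 flox/flox mice without Cre (the Chd4 control), so that both Chd4 groups carried the floxed alleles. Foxn1-Cre is active in thymic epithelium as a whole and not only in tuft cells. No source used here gives ages, pooling of animals or the gates of the sort. In the headers of the count columns the Fezf2 KO libraries appear as a cKO, whereas the sample labels say KO. The column headers of the Chd4 libraries carry another date and name than those of the Aire and Fezf2 libraries.

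Tuft cells are rare chemosensory epithelial cells, best known from the airway and the gut. They read luminal chemicals through a taste-like cascade in which receptors act on the G protein gustducin, a phospholipase C releases calcium, and the cation channel Trpm5 depolarises the cell. They answer by releasing the cytokine Il25, cysteinyl leukotrienes, prostaglandins and acetylcholine. In the thymus they form one of the mature mTEC-derived subsets that resemble peripheral epithelia, and the POU factor Pou2f3 is required for their formation. Because whole mTEC preparations were sequenced, fewer tuft cells and less tuft RNA per cell cannot be told apart in any of the values below.

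Exon reads per library ranged from 3571570 to 17220157, the upper value being Chd4 cKO library B. Fezf2 stood at 569.9 to 734.8 normalised counts scaled to library size (CPM) in its WT and at 8.44 to 23.4 in the Fezf2 KO, and Chd4 at 55.4 to 66.5 in its control and 24.6 to 30.2 in the cKO. For Aire the WT had 1810 to 2302 CPM, and libraries labelled Aire KO had 3737 to 4088. Which exons were deleted is stated in no source used here. A whole-gene Aire count therefore does not check the label, and directions refer to libraries so labelled. One WT library for Fezf2, B, stood apart from A and C for many genes, and the members' Fezf2 values that move by over 1.5 times or turn sign without it are given without it as well. The 3 libraries of a group are called A, B and C. CPM values are normalised for library composition (TMM), and fold changes are log2 values from edgeR's quasi-likelihood test with Benjamini-Hochberg adjustment over all genes tested. A gene is called higher or lower at an adjusted p under 0.05.

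All 34 genes had reads in every control group, and their levels spanned a wide range. Per kilobase of exon (RPKM), the order in the WT for Aire began with Gng13 at 50.5 ± 6.0 (SD, n = 3) and Gnat3 at 45.8, the gamma and alpha subunits of the taste G protein. Il13ra1, Lrmp, Avil and Kctd12 followed at 24.7, 20.6, 19.6 and 19.4 RPKM. Trpm5 stood at 7.89, Pou2f3 at 8.43 and Dclk1 at 2.37 RPKM, and the lowest levels were those of Sucnr1 at 0.976 and Hmx2 at 0.507. In the Chd4 control, measured with a different annotation, the 6 highest were Lrmp (55.0 RPKM), Avil (51.4), Gng13 (44.8), Gnat3 (42.8), Il13ra1 (35.9) and Sh2d6 (28.2), and Hmx2 was again last at 0.519. Exons of several members overlap a gene on the opposite strand, and no source used here says how strand was handled. The overlap covers 399 of 773 exon bases of Gng13 (with Chtf18) and 3805 of 6057 of Kctd12 (with the long non-coding RNA Gm26778), so reads of these genes and their partners may be mixed.

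Promoter sequences are shown for some members, with matches to an octamer that Pou2f3 and its relatives recognise. Whether any difference between groups depends on these matches was not tested. RefSeq windows (GRCm38.p6, 250 bases before to 50 after the start) matched 30 of the 34 members by symbol. Pou2f3, Alox5ap, Il25 and Lrmp were not matched. The octamer ATGCAAAT, searched on both strands, lay in the windows of 3 of the 30 members (10%), Hpgds, Kctd12 and Sucnr1, and in those of 532 of 27025 genes (1.97%). Its first 7 letters, ATGCAAA, which the octamer contains, lay in 4 of 30 members (13.3%), the fourth being Avil, and in 5.24% of all genes. The 95% intervals of the members' shares were 2.11 to 26.5% for the octamer and 3.76 to 30.7% for the 7 letters. The first has a lower end close to the share of all genes (1.97%), and the second includes that share (5.24%). No enrichment among the members is inferred from these few matches. A match is a run of letters and was not tested for binding. The sequences below run 5′ to 3′ on the strand of the gene, and capitals mark the 7 letters or, where complete, the octamer. Kctd12 (chr14:102982638-102982887, minus strand) and Sucnr1 (chr3:60081619-60081868, plus strand) are shown for their octamers, Avil (chr10:127000459-127000708, plus strand) for its pair of 7-letter matches on opposite strands, and Ptgs1 (chr2:36230176-36230425, plus strand) and Trpm5 (chr7:143094643-143094892, minus strand) as members without a match that were lower in the Chd4 cKO. These are the 250 bases before the RefSeq start. Of Hpgds (chr6:65144886-65144915, minus strand) only 30 bases around the octamer are given. Its first base lies 174 bases before the RefSeq start, and the GENCODE gene begins 178 bases before that start, so the match falls within the longer gene model.
Kctd12: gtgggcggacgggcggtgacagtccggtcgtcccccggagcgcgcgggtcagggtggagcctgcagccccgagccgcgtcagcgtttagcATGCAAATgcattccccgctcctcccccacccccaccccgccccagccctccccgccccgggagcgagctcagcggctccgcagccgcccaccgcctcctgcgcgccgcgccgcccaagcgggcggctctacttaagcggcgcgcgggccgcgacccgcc
Sucnr1: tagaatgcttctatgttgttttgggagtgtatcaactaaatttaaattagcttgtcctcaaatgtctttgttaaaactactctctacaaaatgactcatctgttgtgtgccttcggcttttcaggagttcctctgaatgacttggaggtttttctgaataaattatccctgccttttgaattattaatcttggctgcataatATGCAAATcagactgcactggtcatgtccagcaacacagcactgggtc
Avil: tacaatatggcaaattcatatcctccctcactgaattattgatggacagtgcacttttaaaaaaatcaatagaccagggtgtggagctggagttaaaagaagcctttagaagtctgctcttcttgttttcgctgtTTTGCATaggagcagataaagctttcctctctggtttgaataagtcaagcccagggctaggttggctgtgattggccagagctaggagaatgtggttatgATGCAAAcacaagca
Ptgs1: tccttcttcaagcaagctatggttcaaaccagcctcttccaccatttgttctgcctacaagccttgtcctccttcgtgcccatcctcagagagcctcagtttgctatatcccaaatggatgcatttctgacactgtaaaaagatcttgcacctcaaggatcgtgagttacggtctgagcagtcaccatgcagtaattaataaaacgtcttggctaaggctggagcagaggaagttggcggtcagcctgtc
Trpm5: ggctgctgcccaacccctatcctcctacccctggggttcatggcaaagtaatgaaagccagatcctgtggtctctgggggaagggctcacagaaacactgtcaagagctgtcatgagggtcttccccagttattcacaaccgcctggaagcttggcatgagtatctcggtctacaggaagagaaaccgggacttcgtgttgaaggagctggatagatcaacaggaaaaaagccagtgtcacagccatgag
Hpgds: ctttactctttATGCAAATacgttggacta

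The Chd4 cKO was set against its control to see how loss of Chd4, an ATP-driven helicase in the NuRD complex of chromatin remodellers, bears on mTEC transcripts. Most tuft cell genes fell, among them all 5 leukotriene and prostaglandin genes and the acetylcholine enzyme. Pou2f3 itself and the tuft cell marker Dclk1 did not pass the test, and 3 genes rose. Of the 34 genes 32 could be tested, 20 were called lower and 3 higher, while 14.3% of all 15182 genes tested were called in each direction (lower 14.3%, higher 14.3%). All 3 cKO libraries lay below all 3 control libraries for 23 members and above them for 4, compared with 22.1% of all genes below and 22.1% above. The median log2 fold change was -0.97 over the 32 tested members and 0 over all genes tested. Expressed as a sum over the 34 genes, the level was 1288, 1505 and 1784 CPM in control libraries A, B and C and 1158, 1017 and 999.5 in the cKO libraries, so the groups did not overlap.

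**Figure D1:**
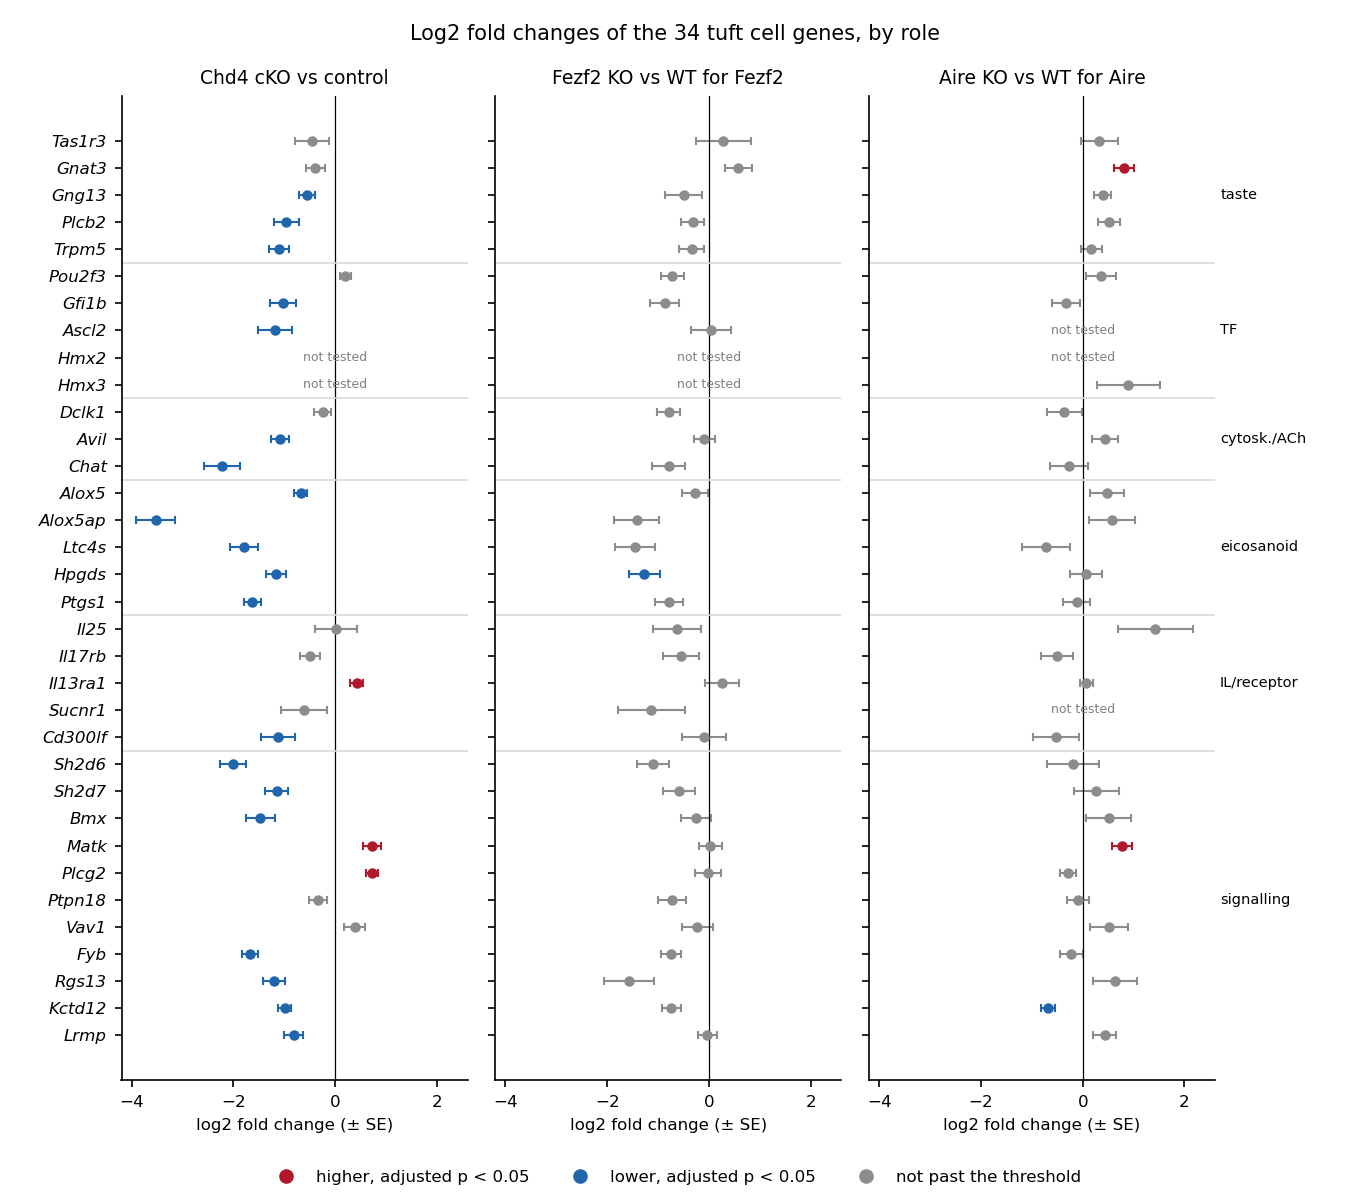
Log2 fold changes with standard errors (x axis) of the 34 tuft cell genes (rows, by role) in the Chd4, Fezf2 and Aire comparisons; blue and red points passed an adjusted p under 0.05, grey points did not, and untested genes are marked. In the Chd4 panel 20 genes are blue and 3 red, in the Fezf2 panel only Hpgds is blue, and in the Aire panel Gnat3 and Matk are red and Kctd12 is blue.

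Among the taste transduction genes 3 of 5 fell. Trpm5 (ENSMUSG00000009246, chr7:143069153-143094642), the cation channel at the end of the cascade, stood at 76.8, 94.7 and 135.0 CPM in the control and at 59.1, 44.7 and 38.8 in the cKO (log2 fold change -1.1 ± 0.20 SE, adjusted p = 0.00283). Its highest cKO library lay below its lowest control library. Plcb2, the phospholipase C of the cascade, stood at 33.8, 60.1 and 46.2 CPM and at 32.4, 17.98 and 22.9 (-0.96 ± 0.24, adjusted p = 0.0146), but without control library B or cKO library B the adjusted p was 0.0719 or 0.0549. Gng13, the G protein gamma subunit, was 1.47-fold lower (34.7 ± 6.0 against 23.6 ± 1.2 CPM, adjusted p = 0.023), and this call was lost when control library A or C or cKO library B or C was left out (adjusted p = 0.0515 to 0.0956). Gnat3, the gustducin alpha subunit, had 47.8, 61.6 and 65.3 CPM against 55.4, 35.6 and 44.1 (-0.39, adjusted p = 0.125), and it passed only without cKO library A (0.0404). The sweet and umami co-receptor Tas1r3 was low, at 5.26 and 3.82 CPM on average (adjusted p = 0.331).

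Of the transcription factors, Gfi1b and Ascl2 fell and Pou2f3 was not called. Pou2f3 (ENSMUSG00000032015, chr9:43123939-43210369), the factor that specifies tuft cells, had 50.4, 50.7 and 57.2 CPM in the control and 66.3, 57.8 and 58.0 in the cKO. Every cKO library was above every control library, but the difference of 0.20 ± 0.11 did not pass (adjusted p = 0.21). Gfi1b, a zinc finger repressor, had 12.1, 17.6 and 18.7 CPM in the control and 9.49, 7.85 and 6.21 in the cKO (-1.03 ± 0.25, adjusted p = 0.0113). Ascl2, a basic helix-loop-helix factor, had 8.59 ± 1.35 and 3.78 ± 1.16 CPM (-1.18 ± 0.33, adjusted p = 0.0233), and its call was lost without control library B or C or cKO library A (adjusted p = 0.0623 to 0.0721). The homeobox genes Hmx2 and Hmx3 had too few reads to be tested. Hmx2 had 4, 6 and 10 reads in the control libraries and 2, 1 and 0 in the cKO libraries, a depth-scaled ratio of 0.0613 (exact 95% interval 0.0117 to 0.207, for counting error only). The 0 reads of cKO library C allow up to 0.636 CPM. Hmx3 had 27 reads over the control and 44 over the deeper cKO libraries, or 2.29 ± 0.57 and 1.52 ± 0.73 CPM.

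In the group of cytoskeleton and acetylcholine genes, Avil and Chat fell and Dclk1 did not pass the test. Avil (ENSMUSG00000025432, chr10:127000709-127020994), the actin-binding protein advillin of the tuft cell's brush of microvilli, had 138.4, 169.4 and 216.5 CPM in the control and 101.9, 76.4 and 69.2 in the cKO (-1.08 ± 0.18, adjusted p = 0.00136). The choline acetyltransferase Chat (ENSMUSG00000021919, chr14:32408203-32465989) had 9.28, 14.1 and 16.5 CPM in the control and 2.88, 3.57 and 1.499 in the cKO, a 4.70-fold difference (-2.23 ± 0.35, adjusted p = 0.00118). The groups were well separated for both genes. Dclk1, a doublecortin-like kinase widely used to stain tuft cells, had 53.5, 70.8 and 88.1 CPM against 59.2, 63.0 and 56.7 (-0.25 ± 0.16, adjusted p = 0.271), and the groups overlapped.

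All 5 eicosanoid genes fell, and they included the largest change among the 32 members tested. Alox5ap (ENSMUSG00000060063, chr5:149264767-149288153), which presents arachidonic acid to the lipoxygenase, had 24.2, 22.0 and 40.4 CPM in the control and 1.29, 3.81 and 1.29 in the cKO, an 11.6-fold difference (-3.53 ± 0.39, adjusted p = 0.000143). In reads these were 86, 89 and 169 against 9, 65 and 6, and the cKO library with 65 reads was the deepest one. Ltc4s (ENSMUSG00000020377, chr11:50236461-50238616), the leukotriene C4 synthase, had 10.7, 15.8 and 15.3 CPM in the control and 3.31, 4.69 and 3.85 in the cKO (-1.79 ± 0.28, adjusted p = 0.00105). The lipoxygenase Alox5 changed least of the 5, from 59.4 ± 7.4 to 37.2 ± 3.6 CPM (-0.68 ± 0.13, adjusted p = 0.00348). On the prostaglandin side, Ptgs1 (ENSMUSG00000047250, chr2:36230426-36252272), the constitutive cyclooxygenase, had 29.5, 38.6 and 34.7 CPM in the control and 11.4, 11.4 and 10.3 in the cKO, so it fell 3.09-fold (-1.63 ± 0.17, adjusted p = 8.52e-05). Hpgds (ENSMUSG00000029919, chr6:65117293-65144908), which makes prostaglandin D2, had 20.5, 24.7 and 24.7 CPM against 11.8, 10.95 and 8.14 (-1.16 ± 0.20, adjusted p = 0.00177). Each control library was above each cKO library for all 5.

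**Figure D2:**
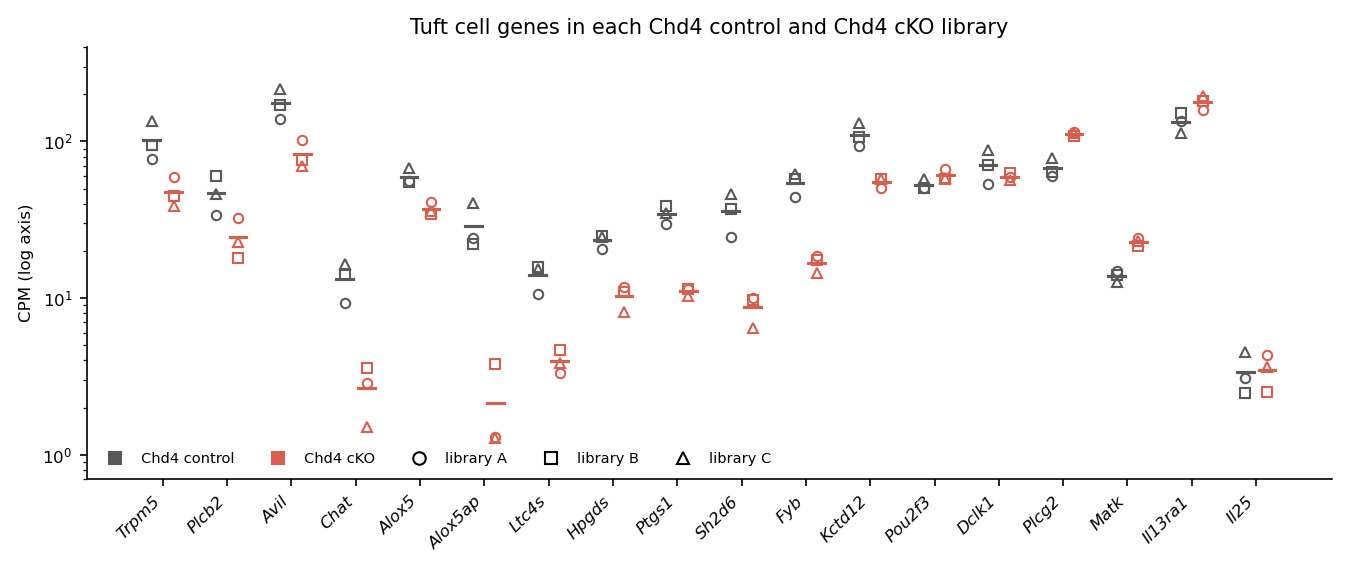
CPM on a log axis (y) of 18 tuft cell genes (x) in each Chd4 control (grey) and Chd4 cKO (red) library, with a bar at each group mean; circles, squares and triangles are libraries A, B and C. The groups are separated for Alox5ap, Chat, Ltc4s, Ptgs1 and Fyb, overlap for Dclk1 and Il25, and are inverted for Plcg2, Matk and Il13ra1.

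Interleukins and receptors did not move together. Il25 (ENSMUSG00000040770, chr14:54932695-54935837), the cytokine by which tuft cells drive type 2 immunity, had 3.10, 2.47 and 4.55 CPM in the control and 4.31, 2.52 and 3.64 in the cKO (0.01 ± 0.41, adjusted p = 0.987), from 10 to 43 reads per library. The standard error of this value is too large to show a modest change, and its sign turned with voom and without control library A or B or cKO library A or C (to -0.173 at the lowest). Il17rb, a receptor subunit for Il25, had 18.6 ± 3.4 and 13.4 ± 1.8 CPM and was not called (adjusted p = 0.0975), and the succinate receptor Sucnr1 had 3.59 and 2.26 CPM (adjusted p = 0.335). The immunoreceptor Cd300lf fell from 7.74 ± 2.04 to 3.56 ± 0.46 CPM (-1.13 ± 0.33, adjusted p = 0.0271), a call lost without control library A or C or cKO library A or B (adjusted p = 0.0759 to 0.0949). Il13ra1, a receptor subunit for interleukin-13, rose from 133.1 ± 18.9 to 178.5 ± 18.7 CPM (0.42 ± 0.12, adjusted p = 0.025). That call was lost without control library A or C or cKO library B or C (adjusted p = 0.0539 to 0.0787).

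Of 11 signalling genes 7 fell and 2 rose. Fyb (ENSMUSG00000022148, chr15:6522853-6663313), an adaptor that links receptor signals to adhesion, had 44.5, 57.1 and 62.2 CPM in the control and 18.7, 17.5 and 14.4 in the cKO and had the smallest adjusted p of all members (-1.68 ± 0.16, adjusted p = 6.56e-05). Sh2d6 (ENSMUSG00000052631, chr6:72513641-72521707), an SH2 domain protein, had 24.5, 36.9 and 46.4 CPM against 10.1, 9.72 and 6.42 (-2.01 ± 0.25, adjusted p = 0.000282). The Tec family kinase Bmx had 25.9, 39.6 and 56.5 CPM against 17.3, 16.8 and 8.99 (-1.47 ± 0.29, adjusted p = 0.00389). For Fyb, Sh2d6 and Bmx the cKO range lay below the control range. Rgs13, a regulator of G protein signalling, Sh2d7, Kctd12, a subunit partner of GABA type B receptors, and the endoplasmic reticulum membrane protein Lrmp fell as well, with log2 fold changes of -1.20, -1.15, -0.99 and -0.82 (adjusted p = 0.00268, 0.00465, 0.000404 and 0.00773). In 1 fit of all 18 libraries Rgs13 and Alox5 were no longer called (adjusted p = 0.0955 and 0.154). Plcg2 (ENSMUSG00000034330, chr8:117498291-117635142), the phospholipase C downstream of Tec kinases, went the other way, from 59.9, 63.3 and 78.7 to 115.2, 107.8 and 113.5 CPM (0.73 ± 0.12, adjusted p = 0.00115). Matk, a kinase that restrains Src family kinases, also rose, from 14.9, 14.1 and 12.7 to 24.0, 21.6 and 23.1 CPM (0.72 ± 0.17, adjusted p = 0.00916). The exchange factor Vav1 and the phosphatase Ptpn18 were not called (0.38 and -0.34, adjusted p = 0.178 and 0.168).

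Other genes of the same pathways, from lists that exclude the 34, showed a mixed picture in the Chd4 cKO. Of 6 tested of 13 further taste transduction genes 2 fell, the G protein beta subunit Gnb3 (134.3 ± 25.4 to 55.6 ± 9.3 CPM, -1.28 ± 0.16, adjusted p = 0.000282) and the calcium release channel Itpr3 (-0.63, adjusted p = 0.00586). Of 9 tested of 13 further eicosanoid genes 3 rose and 1 fell. The inducible cyclooxygenase Ptgs2, the prostaglandin E synthase Ptges and the receptor Ptger4 rose by 0.55, 1 and 1.18 on the log2 scale, and Alox15 fell by 0.99. Of 9 tested type 2 cytokine genes Il13 fell (-1.17, adjusted p = 0.0454), and of 2 tested acetylcholine genes Ache fell (-0.50, adjusted p = 0.00388) and Chrnb2 rose (0.65, adjusted p = 0.0399). Of 30 tested genes of a further tuft cell signature 10 fell and 6 rose, and Cdhr2 (-1.90), Ube2l6 (-1.17) and 1810046K07Rik (-1.24) were among those that fell. Genes of microfold-like mTECs, another subset that mimics peripheral epithelium, were lower for 5 of 8, with summed levels of 1574 to 2266 CPM in the control and 1080 to 1184 in the cKO.

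Several tuft genes are also expressed by blood cells, so markers of those cells are given beside these counts. Of 13 myeloid and dendritic markers counted, 8 were tested, 3 were lower and 1 higher, and their sum was 1117 to 1311 CPM in the control and 649.4 to 807 in the cKO. Lyz2 made up most of that sum (1024 CPM in the control and 541.7 in the cKO). Of 12 mast cell, basophil and eosinophil markers 11 were tested, 2 were lower and 1 higher (402.9 to 485.1 and 409.1 to 446.1 CPM). Thymocyte markers had 1 of 16 tested higher (239.1 to 256.7 and 268.9 to 290.1 CPM), B cell markers 1 higher and 1 lower of 7, erythroid and megakaryocyte markers 1 higher and 4 lower of 9, and fibroblast and endothelial markers 2 lower of 6. No marker list had a gene in the table at 0 reads over the control group, and mTEC markers (3 higher and 3 lower of 12) and cortical markers (2 and 2 of 10) did not shift in 1 direction. The part of these cells in the tuft gene result was not tested. Named as shared with blood cells were the eicosanoid genes, Gfi1b, Cd300lf, Il13ra1 and the signalling genes other than Sh2d6 and Sh2d7. Among the 17 members not named so, the summed level was 532.3, 652.3 and 797.8 CPM in the control and 459, 370.3 and 357.8 in the cKO, again without overlap. The kept members include Plcb2, Il17rb and Sucnr1, and whether they are free of blood cell transcripts was not tested.

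The Fezf2 KO libraries address the zinc finger factor Fezf2, another driver of peripheral antigen expression in mTECs. Most tuft genes were lower on average, but only Hpgds passed the test. Of 32 tested members 1 was called lower and 0 higher, while 2.4% of all genes tested were called lower and 2.48% higher. At an unadjusted p under 0.05 by edgeR 13 members were lower and 0 higher, against 10.5% and 8.72% of all genes. DESeq2 called 7 lower and 0 higher, against 3.67% and 3.77% of all genes. All 3 KO libraries lay below all 3 WT libraries for 15 of the 34 members, compared with 13.4% of all genes tested. The median log2 fold change was -0.57 over the tested members and -0.03 over all genes. Summed over the 34 genes, the level was 1511, 1687 and 1760 CPM in the WT and 1209, 1249 and 1491 in the KO.

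Hpgds had 27.9, 30.4 and 20.7 CPM in the WT and 9.09, 8.64 and 15.1 in the Fezf2 KO (-1.27 ± 0.31, adjusted p = 0.0441). The groups did not overlap, but the call was lost when any library other than WT library B was left out (adjusted p = 0.0523 to 0.206). Ltc4s had 16.4, 42.7 and 18.1 CPM against 8.39, 8.64 and 11.01 (-1.46 ± 0.39, adjusted p = 0.0645). Alox5ap had 15.7, 49.3 and 21.9 CPM against 12.1, 6.79 and 13.5 (-1.42 ± 0.44, adjusted p = 0.104). For both leukotriene genes WT library B was more than 1.5 times as high as A and C, and without it the differences were -0.88 (adjusted p = 0.055) and -0.80 (adjusted p = 0.13). Ptgs1 and Alox5 had log2 differences of -0.79 and -0.27 that did not pass (adjusted p = 0.15 and 0.62).

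Pou2f3 had 52.2, 50.3 and 70.3 CPM in the WT and 33.7, 31.9 and 38.99 in the KO (-0.72 ± 0.22, adjusted p = 0.0937). Dclk1 had 48.2, 64.7 and 72.7 CPM against 38.8, 30.7 and 38.1 (-0.79 ± 0.23, adjusted p = 0.0805). Both genes were below the WT range in all 3 KO libraries, and both passed when WT library B was left out (adjusted p = 0.00909 and 0.0248), as did Fyb and Kctd12 (0.0143 and 0.00521) beside Hpgds. These 5 members compare with 6.06% of all genes called lower without that library. Trpm5 had 92.2, 80.9 and 127.6 CPM against 60.6, 78.6 and 98.9 (-0.34 ± 0.25, adjusted p = 0.5), and Avil had 139.2, 125.5 and 165.6 against 118.5, 129.8 and 157.3 (-0.09 ± 0.20, adjusted p = 0.855). The ranges of Trpm5 and of Avil overlapped between the groups. Il25 had 5.66, 5.24 and 4.09 CPM against 2.45, 2.68 and 4.59 (-0.63 ± 0.47, adjusted p = 0.503).

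The remaining members of the Fezf2 comparison did not pass either. Gnat3 lay above the WT range in all 3 KO libraries (106.1, 56.3 and 120.1 against 123.9, 146.5 and 153.2 CPM, 0.58 ± 0.27, adjusted p = 0.279), and the other taste genes had log2 differences from -0.50 (Gng13) to 0.28 (Tas1r3). Gng13 had 123.4 CPM in WT library B and 41.3 and 49.6 in A and C, and without library B its difference turned to 0.15. Chat and Gfi1b had differences of -0.79 and -0.87 (adjusted p = 0.215 and 0.115), Ascl2 0.04, and the receptors Il17rb, Il13ra1, Sucnr1 and Cd300lf -0.55, 0.26, -1.13 and -0.10. Among signalling genes the differences ran from -1.57 for Rgs13 (37.1, 63.9 and 42.9 CPM against 19.4, 4.32 and 24.8, adjusted p = 0.106) to 0.03 for Matk. Without WT library B the values of Il13ra1 and Cd300lf turned sign as well (to -0.08 and 0.35). Gnat3 and Tas1r3 shrank to 0.32 and 0.07, and Ptpn18 from -0.73 to -0.36. Avil, Ascl2 and Matk moved to -0.17, 0.29 and 0.13, Plcg2 from -0.02 to -0.24 and Vav1 from -0.23 to -0.35. Hmx2 had 6, 12 and 5 reads in the WT and 5, 0 and 0 in the KO, where 0 reads allow up to 0.602 CPM in library B and 0.685 in C. Hmx3 had 28 and 12 reads, or 2.17 ± 0.80 and 0.839 ± 0.467 CPM, and the groups overlapped.

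Thymocyte markers moved in the same direction in the Fezf2 comparison. Of 18 tested 8 were lower, and their sum was 748.7 to 1247 CPM in the WT and 465.8 to 518 in the KO, including Lck (115.5 to 46.2 CPM) and Dntt (93.8 to 30.9 CPM). The part of these transcripts in the tuft gene values was not tested. The 10 tested myeloid and dendritic markers (1002 to 1265 and 647.7 to 906.5 CPM) and the 6 tested B cell markers were not called, and 2 of 11 mast cell, basophil and eosinophil markers were lower. Over the 17 members not named as shared with blood cells the sum was 648.4, 710.9 and 798.8 CPM in the WT and 531.7, 583.1 and 695.5 in the KO, and these ranges overlapped. Of further pathway genes Ptgs2 (-1.78, adjusted p = 0.0371), Il13 (-3.09, adjusted p = 0.0344) and Il13ra2 (-1.89, adjusted p = 0.0133) fell, and the choline transporter Slc5a7 rose (0.64 to 5.30 CPM, adjusted p = 0.0223). In the further tuft signature Vil1, Inpp5j and Cdhr5 fell (-2.27, -1.33 and -1.15), and the 8 further taste genes tested were not called.

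**Figure D3:**
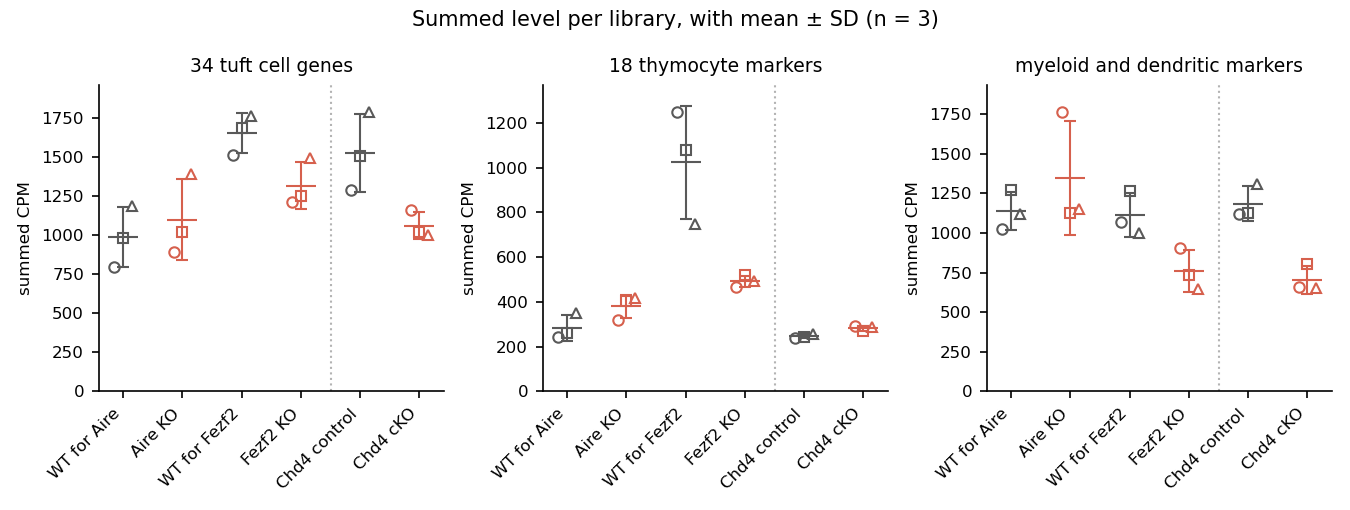
Summed CPM per library (y axis) of the 34 tuft cell genes, of thymocyte markers and of myeloid and dendritic markers in the 6 groups (x axis); circles, squares and triangles are libraries A, B and C, bars are means with SD over 3 libraries, and a dotted line separates the Chd4 libraries, which were counted with another annotation. Values are scaled within each comparison, so points of different comparisons are not on a joint scale. Tuft gene sums of the Chd4 cKO (999.5 to 1158) lie below those of its control (1288 to 1784). Scaled together (not plotted), the sums were 1522 to 1778 in the WT for Fezf2 and 832.6 to 1236 in the WT for Aire.

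A further contrast addresses Aire, the regulator of tissue-restricted genes in mTECs. Tuft genes did not move together. Of 31 tested members 2 were called higher and 1 lower, while 5.73% of all genes tested were called higher and 9.37% lower. The median log2 fold change was 0.27 over the tested members and 0 over all genes. Summed levels were 798.3, 979.1 and 1184 CPM in the WT and 888.6, 1016 and 1389 in the libraries labelled Aire KO, and the groups overlapped.

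Gnat3 had 41.6, 72.7 and 72.5 CPM in the WT for Aire against 93.1, 117.9 and 115.6 in the KO-labelled libraries (0.81 ± 0.19, adjusted p = 0.0109). Matk had 17.0, 15.3 and 18.6 CPM against 25.2, 28.9 and 32.6 (0.77 ± 0.20, adjusted p = 0.0195). The groups were apart for both, yet Gnat3 missed the threshold without Aire KO library B (adjusted p = 0.0522) and Matk without WT library A or B or Aire KO library B or C (0.0521 to 0.0703). Kctd12 had 111.8, 111.7 and 129.3 CPM against 79.5, 61.5 and 79.2 (-0.68 ± 0.13, adjusted p = 0.00343) and stayed called in each of these refits. Fitted with 1 library left out, 0 to 4 members were called higher, the 4 being reached without WT library C.

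The other members of this comparison were not called. Trpm5 had 37.1, 46 and 68.2 CPM against 46.4, 57.2 and 66.7 (0.17 ± 0.21, adjusted p = 0.667), and Pou2f3 had 22.4, 21.5 and 34.1 against 22.9, 25.9 and 51.8 (0.36 ± 0.29, adjusted p = 0.48). Avil had 50.3, 65.3 and 84.0 CPM against 60, 78.5 and 132.9 (0.44 ± 0.25, adjusted p = 0.285). In each of these the ranges overlapped, and library C was the highest of its group. Without Aire KO library C the difference of Pou2f3 turned to -0.08, and without WT library A that of Trpm5 turned to -0.004. Dclk1 had 21.6, 45.8 and 41.5 CPM against 16.9, 21.4 and 46.6 (-0.36 ± 0.35, adjusted p = 0.569), and Il25 had 1, 11 and 4 reads against 10, 9 and 22 (1.43 ± 0.73, adjusted p = 0.232). The 5 eicosanoid genes had differences from -0.72 (Ltc4s) to 0.57 (Alox5ap), with adjusted p values from 0.372 to 0.912, and all but Ltc4s turned sign when some library was left out. Ascl2, Hmx2 and Sucnr1 were not tested, with 52 and 22, 23 and 18, and 22 and 18 reads over the 2 groups. Of the further pathway lists, 5 of 9 tested type 2 cytokine genes rose and 2 fell, both acetylcholine genes tested rose, Ptgds fell from 85.1 to 4.15 CPM (-4.34, adjusted p = 3.95e-07), and 3 of 29 signature genes rose and 6 fell. Microfold genes were lower for 6 of 8.

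The WT groups of the Aire and Fezf2 comparisons were also set against each other, since both were labelled as C57BL/6 WT. This comparison shares its libraries with the 2 knockout comparisons, so its values are not independent of theirs. The WT for Fezf2 had the higher level for 31 of 33 tested members, with a median log2 difference of 0.82 against 0.03 for all genes, but 0 were called by edgeR in either direction (lowest adjusted p = 0.0918, Rgs13). Of all genes tested 0.0958% were called higher and 0.0319% lower. At an unadjusted p under 0.05 by edgeR 18 members were higher and 0 lower, against 7.13% and 4.81% of all genes. DESeq2 called 7 higher, against 1.48% of all genes, and voom with sample quality weights 13, against 2.87%. All 3 libraries of the WT for Fezf2 lay above all 3 of the WT for Aire for 17 of 34 members, compared with 10.4% of all genes. Without WT for Fezf2 library B 7 members were called higher, against 1.93% of all genes. Scaled together, Avil had 52.4, 68.3 and 87.7 CPM in the WT for Aire and 140.2, 126.5 and 167.3 in the WT for Fezf2 (1.06 ± 0.23, adjusted p = 0.109). Pou2f3 had 23.4, 22.5 and 35.6 against 52.6, 50.7 and 71.0 (1.1 ± 0.26, adjusted p = 0.118). Trpm5, Dclk1 and Il25 had differences of 0.94, 0.72 and 2.03 (adjusted p = 0.193, 0.372 and 0.285). Thymocyte markers were again higher in the WT for Fezf2, with 5 of 18 called and sums of 756.2 to 1256 against 252.2 to 364.6 CPM, and whether they bear on these values was not tested.

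Differences between the effects were tested as interaction contrasts in a fit of all 18 libraries, in which all 34 members could be tested. Each effect is taken against its own control. The Chd4 groups differ from the others in strain background, annotation and the date in their headers. Differences between the Chd4 effect and another effect cannot be told apart from these. The Chd4 and Aire effects differed for 12 members, 11 with a more negative Chd4 effect and 1 (Plcg2) with a more positive one, while 5.11% of all genes were called below 0 and 11.4% above. The largest was Alox5ap, with -3.54 in the Chd4 and 0.60 in the Aire comparison (difference -4.13 ± 0.73, adjusted p = 0.000466). Avil differed by -1.51 ± 0.35 (adjusted p = 0.00501) and Trpm5 by -1.26 ± 0.36 (adjusted p = 0.0188), whereas the values for Pou2f3 (-0.15), Dclk1 (0.13) and Il25 (-1.38 ± 0.85) did not pass. The Chd4 and Fezf2 effects differed for 3 members, against 6.87% of all genes below 0 and 8.03% above. These were Alox5ap (-2.12 ± 0.70, adjusted p = 0.0467) and Fyb (-0.91 ± 0.30, adjusted p = 0.0457) below 0 and Plcg2 (0.79 ± 0.25, adjusted p = 0.0399) above. Pou2f3 was near the threshold with an effect of 0.24 in the Chd4 and -0.73 in the Fezf2 comparison (difference 0.97 ± 0.34, adjusted p = 0.0586). Matk was near it as well (0.73, adjusted p = 0.0577). So were Avil, Chat and Gnat3 (-0.96, -1.41 and -0.92, adjusted p = 0.0675, 0.0713 and 0.0773), which DESeq2 called (0.0401, 0.0435 and 0.0488). A difference that did not pass does not show that the effects are alike. The Fezf2 and Aire effects differed for 4 members, all below 0, against 5.51% of all genes below and 11.4% above, namely Rgs13 (-2.22 ± 0.67), Hpgds (-1.37 ± 0.41), Pou2f3 (-1.11 ± 0.35) and Matk (-0.77 ± 0.25).

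**Figure D4:**
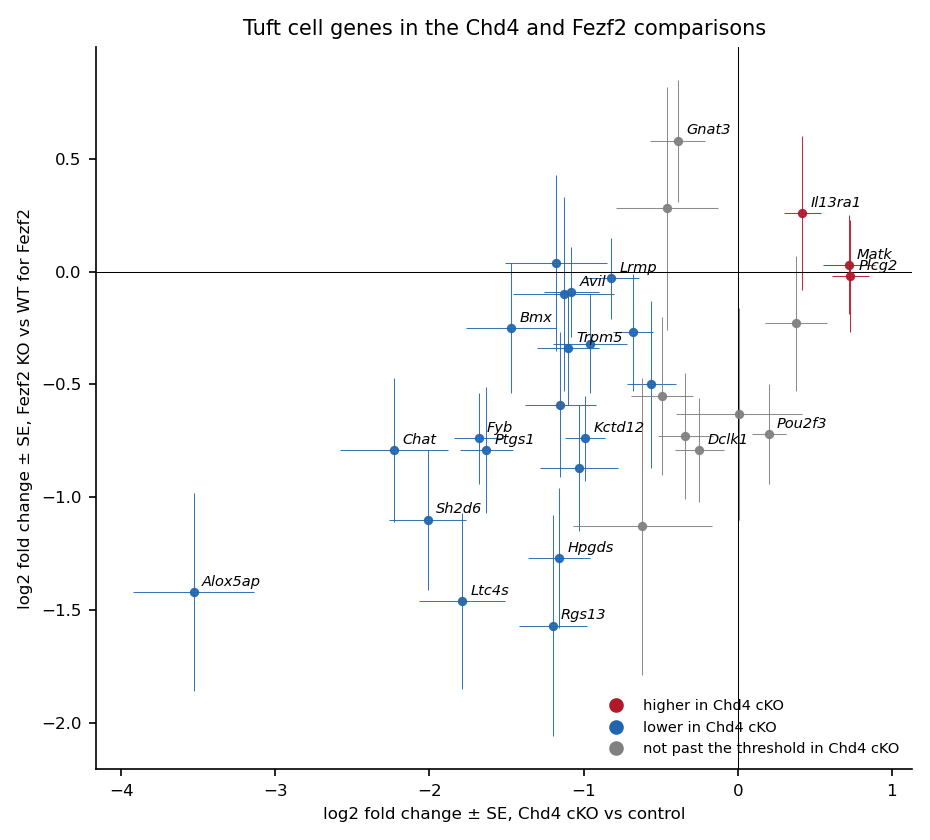
Log2 fold changes with standard errors of each tested tuft cell gene in the Chd4 comparison (x axis) and the Fezf2 comparison (y axis), which share no library; colours give the call in the Chd4 comparison. Of the 20 genes lower in the Chd4 cKO 19 lie below 0 on the y axis too, as do 27 of all 32 genes tested. Pou2f3 lies to the right of 0 and below it.

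The Chd4 and Fezf2 comparisons share no library. Of the 20 members called lower in the Chd4 cKO 19 had a negative difference in the Fezf2 comparison, with Ascl2 as the exception. Of all 32 members tested there, these included, 27 had a negative difference, so most members shared that direction whatever their Chd4 call. For 11 of the 20 and for 15 of all 34 members all 3 KO libraries lay below all 3 WT libraries there. The share among all genes tested in that comparison was 13.4%. That share was not counted among all genes called lower in the Chd4 cKO. Of all 2112 genes called lower in the Chd4 cKO and tested in both, 54.9% had a negative difference in the Fezf2 comparison, as did 52.3% of all genes tested in both. In the Aire comparison 8 of the 19 tested were negative and 11 positive. By edgeR, Fezf2 itself was higher in the Chd4 cKO (0.64, adjusted p = 0.000655) and Aire lower (-0.39, adjusted p = 0.00294). Chd4 had a difference of -1.15 in the Fezf2 comparison that did not pass (adjusted p = 0.153). Its WT libraries A, B and C there had 41.7, 128.1 and 43.6 CPM. How these genes bear on the shared direction was not tested. The authors' deposited table gives q values under 0.05 for 24 of the 34 members in its Chd4 comparison, 8 in its Fezf2 comparison and 3 in its Aire comparison. The share of all genes under that q value was not counted, so these counts cannot be set against a background. In the authors' deposited table the Fezf2 members are Dclk1, Alox5ap, Ltc4s, Hpgds, Sh2d6, Fyb, Rgs13 and Kctd12.

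Within a group the members also moved together from library to library, so that they are not independent of each other. In the Chd4 control library C was the highest of the 3 for 27 of 34 members and library A the lowest for 24. In the Chd4 cKO library A was the highest for 23. Library C was the highest for 26 members in the Fezf2 KO, for 24 in the KO-labelled Aire libraries and for 21 in their WT, whereas in the WT for Fezf2 library B led for 16 and C for 14. In the WT for Aire, for example, Sh2d6 stood at 8.07, 20.4 and 34.97 CPM and Plcg2 at 46.4, 57.4 and 49.4. The names A, B and C carry no order or pairing between groups.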

How the data were processed

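Libraries had been prepared from total RNA of sorted mTECs with a SMART-seq v4 kit, per the labels' protocols. The authors deposited raw counts (total exon reads per gene), per the file headers, and a summary with q-values of their own comparisons. DESeq2 and the builds mm10 and GRCm38 are named in the submitters' processing notes. Aligner, strand setting and treatment of multiply matching reads: not given in the sources used here. Column headers show a group but no replicate number, so libraries were lettered in barcode order, and 216 other per-library columns were not used. The 34 members, the other gene lists and the tests were chosen with earlier results of these data known. Whether the 3 samples of a group come from separate animals is not stated, so p-values measure the spread between these samples.

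Per comparison, the 6 libraries entered edgeR 4.0.16 under R 4.3.3 (TMM, filterByExpr, quasi-likelihood F test, Benjamini-Hochberg adjustment over all genes tested, threshold 0.05). Differences between effects used 1 fit of 18 libraries over the 21875 gene IDs shared by the tables. CPM were computed with TMM factors and RPKM with each table's exon lengths, so levels are not compared across tables. Intervals and the limit allowed by 0 reads (3 reads) cover counting error only. Alternatives were RLE factors, library size only, DESeq2 1.42.0, no filter, at least 10 reads in 3 libraries, voom with quality weights in limma 3.58.1, all libraries in 1 fit and leaving out each library. The procedure was run on simulated counts with the same spread in every comparison. The spread estimated from the data (biological coefficient of variation) differed. It was 0.149 for Chd4, 0.183 for Aire, 0.279 for Fezf2 and 0.28 between the WT groups. The simulation therefore does not show how reliable the calls of each comparison are. All 34 members are named, with full statistics for those past the threshold and for Pou2f3, Trpm5, Dclk1, Avil and Il25. Of the other lists at most the 4 called genes with the smallest adjusted p are named. Marker genes given with levels, and the examples Sh2d6 and Plcg2 at the end, were chosen after their values were seen. Gene coordinates are GRCm38 from GENCODE, and promoter sequences are from RefSeq.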

Additional observations from a re-analysis of the deposited data

Results flagged for a closer look

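Each result listed here was singled out because the effects of 2 comparisons on the same gene differed by a direct test, the interaction contrast in edgeR's fit of all 18 libraries. Differences that involve Chd4 cannot be told apart from the other strain background, annotation and header date of the Chd4 libraries. Between the Chd4 and Aire effects the log2 differences of the taste genes were -1.17 for Gnat3, -1.45 for Plcb2 and -1.26 for Trpm5. Those of the cytoskeletal and acetylcholine genes were -1.51 for Avil and -1.96 for Chat. Among eicosanoid genes Alox5ap differed by -4.13, Hpgds by -1.22 and Ptgs1 by -1.49, and among signalling genes Bmx by -1.98, Fyb by -1.45, Lrmp by -1.23 and Plcg2 by 1.04. Between the Chd4 and Fezf2 effects Alox5ap differed by -2.12, Plcg2 by 0.79 and Fyb by -0.91. Between the Fezf2 and Aire effects Pou2f3 differed by -1.11, Hpgds by -1.37, Matk by -0.77 and Rgs13 by -2.22. These values contain the difference between the WT groups and cannot be told apart from it. DESeq2 called the 19 differences listed here as well, with adjusted p values from 4.7e-07 to 0.0431. It also called Alox5 and Sh2d6 between the Chd4 and Aire effects. Between the Chd4 and Fezf2 effects it added Gnat3, Avil and Chat, and between the Fezf2 and Aire effects Alox5ap.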

How the results depend on the processing

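Of 1991 values recomputed under the alternatives 57 changed sign, in 29 genes and comparisons, and 0 of these were called in either fit. In the Chd4 comparison 16 of 23 member calls held throughout, with 17 to 19 lower and 2 to 3 higher when 1 library was left out (all genes 1595 to 2072 higher, 1608 to 1891 lower). The fit of all 18 libraries gave 1179 genes higher and 1196 lower and lost Gng13, Ascl2, Alox5, Il13ra1, Cd300lf and Rgs13. In the Fezf2 comparison, members lower numbered 2 with library size only, 7 with DESeq2, 5 with no filter, 12 with voom, 7 in the fit of all libraries and 0 to 5 with 1 library left out. Genes higher and lower were 645 and 629, 663 and 724, 1193 and 1307, and 1011 and 1158 with DESeq2, no filter, voom and all libraries, and 102 to 1053 and 67 to 981 with 1 library left out, the upper values without WT library B and the lower ones without KO library B. For Aire, library size only gave 564 genes higher, no filter gave 2257 lower and 5 members higher, and leaving out 1 library gave 0 to 4 members higher, 573 to 805 genes higher and 1101 to 1551 lower. Between the WT groups, DESeq2, no filter, voom and all libraries called 7, 10, 13 and 7 members higher (all genes 245, 313, 449 and 342 higher, 138, 142, 330 and 290 lower). With 1 library left out these were 0 to 7 members and 0 to 312 and 0 to 324 genes, highest without WT for Fezf2 library B. DESeq2 gave 5 members with a lower Chd4 than Fezf2 effect (all genes 1440). Apart from settings that leave out samples, the cause was not tested. No paired analysis was possible because the count columns carry no replicate number. Depth limits Hmx2, Hmx3, Sucnr1 and Il25, which had few reads.

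The log2 differences that changed sign when 1 library was left out had these ranges over such refits. In the Aire comparison they were Trpm5 -0.004 to 0.457, Hpgds -0.172 to 0.376, Ptgs1 -0.328 to 0.065, Ptpn18 -0.317 to 0.096, Chat -0.532 to 0.03, Sh2d6 -1.019 to 0.389, Fyb -0.455 to 0.022, Pou2f3 -0.08 to 0.612, Alox5 -0.043 to 0.802, Alox5ap -0.169 to 0.905, Il13ra1 -0.019 to 0.158, Sh2d7 -0.076 to 0.664, Bmx -0.183 to 0.932, Vav1 -0.02 to 0.909 and Rgs13 -0.074 to 1.022. In the Fezf2 comparison they were Ascl2 -0.154 to 0.291, Matk -0.028 to 0.131, Plcg2 -0.239 to 0.14, Gng13 -0.772 to 0.151, Il13ra1 -0.078 to 0.524, Cd300lf -0.376 to 0.352, Avil -0.202 to 0.035, Bmx -0.474 to 0.076, Lrmp -0.079 to 0.038 and Tas1r3 -0.098 to 0.803. In the Chd4 comparison the range was Il25 -0.173 to 0.312, and between the WT groups Hmx3 -0.072 to 0.985 and Il13ra1 -0.486 to 0.113. With library size only, Hpgds and Il13ra1 turned to -0.036 and -0.038 for Aire and Matk to -0.013 for Fezf2. With voom, Hpgds turned to -0.129 for Aire, Gng13 and Cd300lf to 0.022 and 0.086 for Fezf2, Il25 to -0.078 for Chd4 and Il13ra1 to 0.058 between the WT groups. With DESeq2 the difference between the Chd4 and Aire effects on Il17rb was -0.003.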
